A study of Mus musculus with 9 samples.

Results

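The genes described here are 8 channels, transporters and pump subunits with which acinar cells of the salivary gland move salt and water: Aqp5, Ano1, Slc12a2, Kcnn4, Kcnma1, Atp1b1, Atp1b3 and Lrrc8a. They were chosen by name for their role in fluid secretion, out of 54532 genes in the deposited count table. Earlier results of these data were known when they were chosen, and all 8 had enough reads to be tested. All mice were wild type and had received 10 Gy of radiation, and the submandibular salivary gland was collected 30, 60 or 90 days later, giving 3 libraries for each time. RNA was taken from 4 sections of each gland, 50 µm thick, so the values are averages over acinar, duct, myoepithelial, stromal and immune cells. Non-irradiated glands were not analysed here. A later collection also means an older mouse, and the effects of age and of the interval cannot be told apart. The labels do not say that libraries of a group came from separate animals, so the p-values measure the spread between these samples, which may be technical.

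Saliva begins as a plasma-like fluid made by acinar cells. Slc12a2 (NKCC1) loads chloride across the basolateral membrane, driven by the sodium gradient that the sodium pump maintains. Muscarinic stimulation raises intracellular calcium, which opens the apical chloride channel Ano1 (TMEM16A) and the potassium channels Kcnn4 (KCa3.1) and Kcnma1 (BK). Potassium exit keeps the cell negative so that chloride continues to leave, sodium follows between the cells, and water follows the salt, mainly through Aqp5. Lrrc8a is the essential subunit of the volume-regulated anion channel, which lets swollen cells lose anions and shrink again.

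In the reported edgeR fit the water channel Aqp5, the apical chloride channel Ano1 and the potassium channel Kcnn4 were lower at 90 than at 30 days. They stood at 0.674, 0.723 and 0.723 of the 30-day level. None of these calls held with library totals alone, without 30-day sample 1 or without 90-day sample 2. Slc12a2 and Kcnma1 had estimates of the same size that did not pass the test, and the estimates for Atp1b1, Atp1b3 and Lrrc8a lay between 0.910 and 1.11 of the 30-day level. Expression is given as CPM, the usual depth-scaled count: a gene's reads relative to all reads of the library after scaling by the trimmed mean of M-values (TMM), and each log2 fold change is followed by its standard error. A change was called at an adjusted p under 0.05 in edgeR's quasi-likelihood test, with Benjamini-Hochberg adjustment over all 15224 genes tested.

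Total counts ran from 16541396 to 17179500 in the 30-day libraries and from 20410818 to 26065856 in the 60-day and 90-day libraries, so depth moved with time. The secretory gene Mucl2 took 31.4% to 42.8% of all counts. Its share was highest in 30-day sample 1, which had the lowest TMM factor (0.824), and lowest in 90-day sample 2, which had the highest (1.19). Leaving out either of these libraries ended every call among the 8 genes at 90 against 30 days, and the part of their composition in those calls was not tested. All 10 listed acinar markers, the defining ones included, had enough reads to be tested, and 2 of 10 (the muscarinic receptor gene Chrm3 and the lactoperoxidase gene Lpo) were lower at 90 than at 30 days. Both calls were lost without 30-day sample 1 (adjusted p = 0.101 and 0.258) and without 90-day sample 2 (adjusted p = 0.0744 and 0.213), among others. The other 8 acinar markers were not called in that comparison, and 3 of the 10 estimates were higher at 90 days: Bpifa2 (43.1 ± 26.12 to 233 ± 166 CPM), Dcpp1 (0.873 ± 0.710 to 4.39 ± 3.26 CPM) and Vamp8 (61.5 ± 5.03 to 78.6 ± 5.56 CPM; SD, n = 3 each). The acinar markers did not run evenly over time. With 60 days set against the average of the outer time points all 10 estimates were positive, and 1 of them, the acinar transcription factor gene Bhlha15, was called (0.63 ± 0.10, adjusted p = 0.00643). Bhlha15 averaged 365, 510 and 297 CPM at the successive time points and was the 1 of 10 called at 90 against 60 days (-0.78 ± 0.12, adjusted p = 0.00581). The first call was lost without 60-day sample 2 (adjusted p = 0.0708), the second without 90-day sample 2 (adjusted p = 0.0620), and both with library totals alone (adjusted p = 0.0582 and 0.128). The summed acinar markers, nearly all of it Mucl2, ranged from 391884 to 533155 CPM at 30 days, from 310272 to 461124 CPM at 60 days and from 272068 to 405909 CPM at 90 days. Of 8 granular duct markers 7 were higher at 60 and at 90 than at 30 days and 0 were at 0 counts, and their sum ranged from 21065 to 29253 CPM at 30 days, from 42062 to 51174 CPM at 60 days and from 36911 to 50656 CPM at 90 days. The part of these cell type markers in the results below was not tested, and in bulk samples fewer cells of a type and less RNA per cell cannot be told apart.

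Divided by exon length, the 8 genes kept a single order of level at all 3 time points. Atp1b1 was highest, with 325 ± 27.1 CPM per kb of exon at 30 days, followed by Aqp5 with 184 ± 14.7, Slc12a2 with 113 ± 21.96 and Kcnn4 with 87.9 ± 11.97 (SD, n = 3 each). Ano1 stood lower at 23.9 ± 1.41 CPM per kb, then Atp1b3 at 11.6 ± 0.879, Kcnma1 at 3.84 ± 1.14 and Lrrc8a at 0.975 ± 0.051 (SD, n = 3 each). Neighbours in this order had values that did not overlap, except that the ranges of Slc12a2 and Kcnn4 overlapped at 30 days. The length used counts every annotated exon base of a gene, and the order depends on it. Undivided, the 30-day means were 1239 CPM for Slc12a2 and 1000 for Atp1b1, and 65.2 for Kcnma1 and 27.6 for Atp1b3. The level of Lrrc8a, and with it the last place in this order, is uncertain. On the same strand 66.2% of its exon bases are shared with the annotated gene Gm28035. Over the 9 libraries Gm28035 had 5 counts and Lrrc8a had 800. How reads in shared exons were assigned, or whether they were dropped, is not given in the sources used here.

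**Figure D1:**
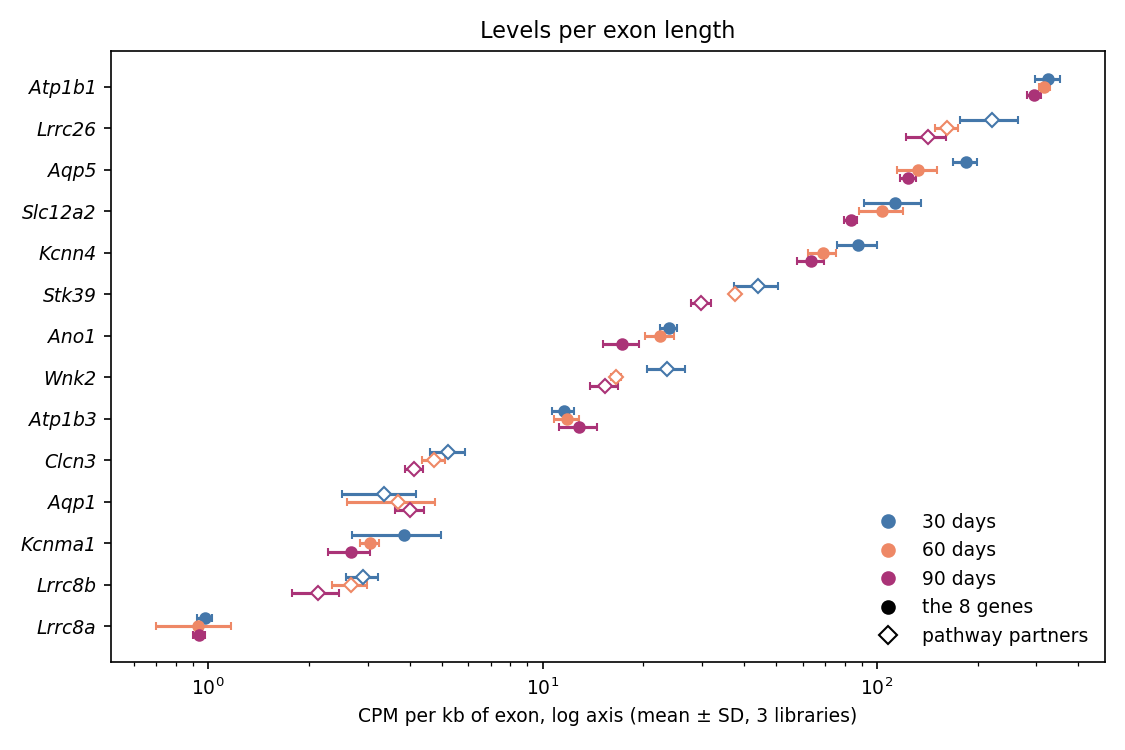
Expression per exon length (CPM per kb of exon, log axis) at 30, 60 and 90 days for the 8 genes (filled circles) and 6 partner genes of the pathway (open diamonds); points are means and bars the SD of 3 libraries. Atp1b1 lies at the top of the 8 genes and Lrrc8a at the bottom, and the order of the 8 is the same at each time point. The level of Lrrc8a is uncertain because most of its exon bases are shared with another gene.

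Aqp5 is the apical water channel of acinar cells (ENSMUSG00000044217, a protein-coding gene on chromosome 15 from 99590782 to 99594829, plus strand, GRCm38). It measured 522, 461 and 452 CPM in the 3 libraries at 30 days, 400, 309 and 329 CPM at 60 days, and 329, 301 and 337 CPM at 90 days. All 30-day values lay above all later values, and the 60-day and 90-day ranges overlapped. At 90 against 30 days its log2 fold change was -0.57 ± 0.12 (adjusted p = 0.0113), a level of 0.674 with a 95% interval of 0.566 to 0.802. Most of the estimated decline fell in the first interval, with -0.47 ± 0.12 from 30 to 60 days (adjusted p = 0.0579) and -0.10 ± 0.12 from 60 to 90 days (adjusted p = 0.824). The 30 to 90 day call was lost without 30-day sample 1 (adjusted p = 0.0629) and without 90-day sample 2 (adjusted p = 0.0721).

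Ano1 encodes the calcium-activated chloride channel through which chloride leaves the acinar cell (ENSMUSG00000031075, chromosome 7 from 144588549 to 144751974, minus strand). Its values were 159, 146 and 142 CPM at 30 days, 128, 137 and 156 CPM at 60 days, and 106, 95.5 and 122 CPM at 90 days. Here the 30-day and 60-day ranges overlapped and every 90-day library was below every earlier one. By 90 days its log2 fold change against 30 days was -0.47 ± 0.11 (adjusted p = 0.0245), a level of 0.723 with a 95% interval of 0.614 to 0.852. The step from 60 to 90 days was estimated at -0.38 ± 0.11 (adjusted p = 0.217) and that from 30 to 60 days at -0.09 ± 0.11 (adjusted p = 0.814). Leaving out 30-day sample 1 or 2, or 90-day sample 1 or 2, ended the 30 to 90 day call, with adjusted p-values of 0.123, 0.0742, 0.0581 and 0.159.

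Slc12a2, the sodium, potassium and chloride cotransporter that loads the cell with chloride (ENSMUSG00000024597, chromosome 18 from 57878678 to 57946821, plus strand), measured 1512, 1143 and 1062 CPM at 30 days, 1176, 1279 and 947 CPM at 60 days, and 933, 862 and 935 CPM at 90 days. The 90-day libraries lay below all others and close together, while 30-day sample 1 stood well above the rest of its group. Over the 30 to 90 day interval its log2 fold change was -0.45 ± 0.15 and did not pass the test (adjusted p = 0.111, with a 95% interval of the level of 0.592 to 0.912). Slc12a2 was called as lower by DESeq2 (adjusted p = 0.0286), with the 10 most abundant genes left out of the totals (adjusted p = 0.0491) and with no filter (adjusted p = 0.00815). Without 30-day sample 1 the estimate was -0.28 (adjusted p = 0.503).

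Kcnn4 and Kcnma1 encode the calcium-activated potassium channels of intermediate and of large conductance. Kcnn4 (ENSMUSG00000054342, chromosome 7 from 24370263 to 24386690, plus strand) measured 519, 403 and 426 CPM at 30 days, 388, 347 and 320 CPM at 60 days, and 353, 293 and 328 CPM at 90 days. As with Aqp5, the 30-day values lay above all later ones and the 60-day and 90-day ranges overlapped. Kcnn4 was lower at 90 than at 30 days, with a log2 fold change of -0.47 ± 0.12 (adjusted p = 0.0419, a level of 0.723 with a 95% interval of 0.603 to 0.866). This is the weakest of the called changes. It was lost without any 1 of the 30-day samples 1, 2 and 3, of 60-day sample 2 or of the 90-day samples 2 and 3, with adjusted p-values from 0.0518 to 0.233.

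Kcnma1 (ENSMUSG00000063142, chromosome 14 from 23289431 to 24014491, minus strand) encodes the pore of the large-conductance channel, which smooth muscle also uses. Its values were 87.6, 53.7 and 54.2 CPM at 30 days, 49.4, 55.5 and 50.3 CPM at 60 days, and 52.5, 40.4 and 42.8 CPM at 90 days. A single library, 30-day sample 1, stood far above the rest, and the 30-day and 90-day ranges did not overlap. Its overall log2 fold change, 90 against 30 days, was -0.52 ± 0.17 (adjusted p = 0.114), and it was -0.26 without that library (adjusted p = 0.448). Kcnma1 was called as lower by DESeq2 (adjusted p = 0.0399), with the replicate block (adjusted p = 0.0399) and with no filter (adjusted p = 0.000725). Kcnn4 exceeded Kcnma1 per kb of exon at every time point. The smooth muscle and myoepithelial markers ranged in sum from 297 to 414 CPM at 30 days and from 411 to 573 CPM at 90 days. All 8 estimates were higher at 90 than at 30 days, with a median log2 fold change of 0.44. Only Actg2, 1 of the 8, was called, where 3.57% of all genes were called.

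Atp1b1 and Atp1b3 encode beta subunits of the sodium pump, which the assembled pump needs to reach the membrane. Atp1b1 (ENSMUSG00000026576, chromosome 1 from 164437109 to 164458355, minus strand) measured 1070, 1023 and 908 CPM at 30 days, 941, 1014 and 972 CPM at 60 days, and 957, 895 and 879 CPM at 90 days. The 3 ranges overlapped. Its 90 against 30 day log2 fold change was -0.14 ± 0.12 (adjusted p = 0.637), with a 95% interval of the level of 0.766 to 1.08. Nme7 on the opposite strand covers 18.7% of the Atp1b1 exon bases, but it had 706 counts over the 9 libraries where Atp1b1 had 187256.

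Atp1b3 (ENSMUSG00000032412, chromosome 9 from 96332655 to 96364442, minus strand) was the only one of the 8 whose estimate was higher at 90 than at 30 days. It measured 25.5, 29.7 and 27.7 CPM at 30 days, 29.5, 25.5 and 29.8 CPM at 60 days, and 26.4, 34.3 and 31.4 CPM at 90 days. The groups overlapped throughout. At 90 against 30 days its log2 fold change was 0.15 ± 0.12 (adjusted p = 0.592), with a 95% interval of the level of 0.932 to 1.32. Lrrc8a (ENSMUSG00000007476, chromosome 2 from 30237715 to 30263790, plus strand) lay between 3.96 and 4.40 CPM at 30 days, between 3.30 and 5.18 CPM at 60 days and between 3.86 and 4.19 CPM at 90 days. Those values rest on 60 to 122 reads a library, and its log2 fold change at 90 against 30 days was -0.05 ± 0.23 (adjusted p = 0.940, with a 95% interval of the level of 0.692 to 1.34).

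**Figure D2:**
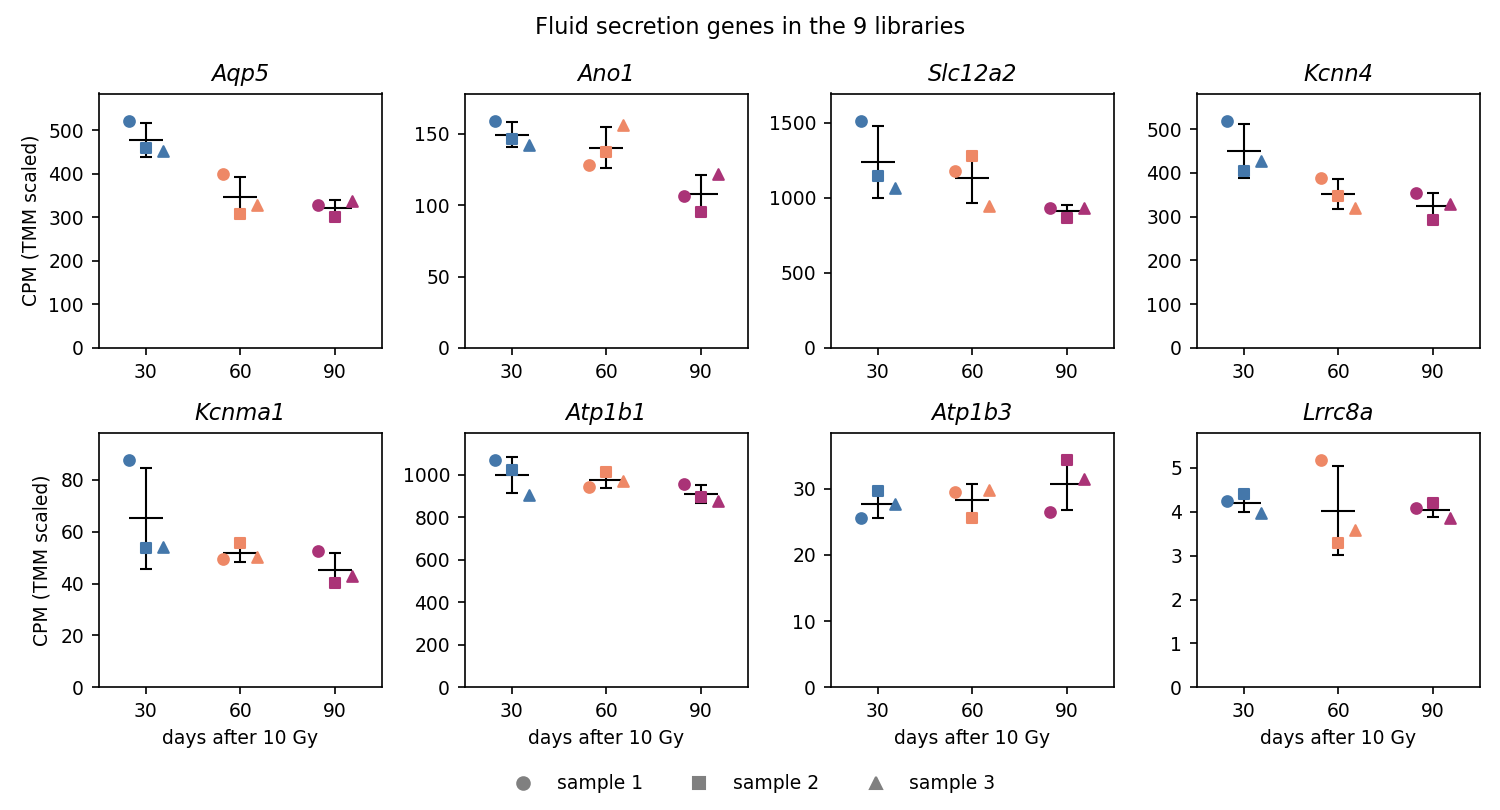
TMM-scaled CPM of each of the 8 genes in each library by days after 10 Gy; colours mark the time point, symbols the sample number, and the black bar and whiskers the mean and SD of 3 libraries. All 30-day values of Aqp5 and Kcnn4 lie above the later ones, all 90-day values of Ano1 and Slc12a2 lie below the earlier ones, and 30-day sample 1 stands apart in Kcnma1.

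Over the whole table, 3 of the 8 genes were called at 90 against 30 days, all lower, where 3.57% of all genes tested were called and 1.77% were called lower. The median log2 fold change was -0.46 over the 8 genes and 0.01 over all genes. For 5 of the 8 (Aqp5, Ano1, Slc12a2, Kcnn4 and Kcnma1) the 90-day values all lay below the 30-day values, which held for 11.8% of all genes. The test of any difference among the 3 time points called 2 of the 8, Aqp5 (adjusted p = 0.0177) and Ano1 (adjusted p = 0.0461), where 3.29% of all genes were called. The count at 90 against 30 days fell to 0 without 30-day sample 1 and to 0 without 90-day sample 2. Because the 8 genes were chosen with earlier results of these data known, their shares beside all genes are a description and not a test.

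The single steps were smaller. Between 30 and 60 days edgeR called 0 of the 8 genes, where 1.56% of all genes were called. An unadjusted p under 0.05 in edgeR was found for 2 of the 8 and for 1883 of the 15224 genes tested. DESeq2 and limma-voom each called 1 there. Between 60 and 90 days 0 of the 8 were called by edgeR, DESeq2 or limma-voom, where 0.256% of all genes were called by edgeR. There 2 of the 8 and 1637 of the 15224 genes tested had an unadjusted p under 0.05 in edgeR. For Aqp5 and Kcnn4 the 60-day values all lay below the 30-day values, a pattern held by 8.22% of all genes, and for Ano1 and Slc12a2 the 90-day values all lay below the 60-day values, held by 7.64%.

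Whether the steps differed was tested with 60 days against the mean of 30 and 90 days. Aqp5 gave -0.18 ± 0.10 (adjusted p = 0.618) and Ano1 gave 0.15 ± 0.10 (adjusted p = 0.681). In this contrast 0 of the 8 were called by edgeR, DESeq2 or limma-voom, where 0.256% of all genes were called by edgeR. The timing of the lower values of Aqp5 and of Ano1 was not separated by this test.

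**Figure D3:**
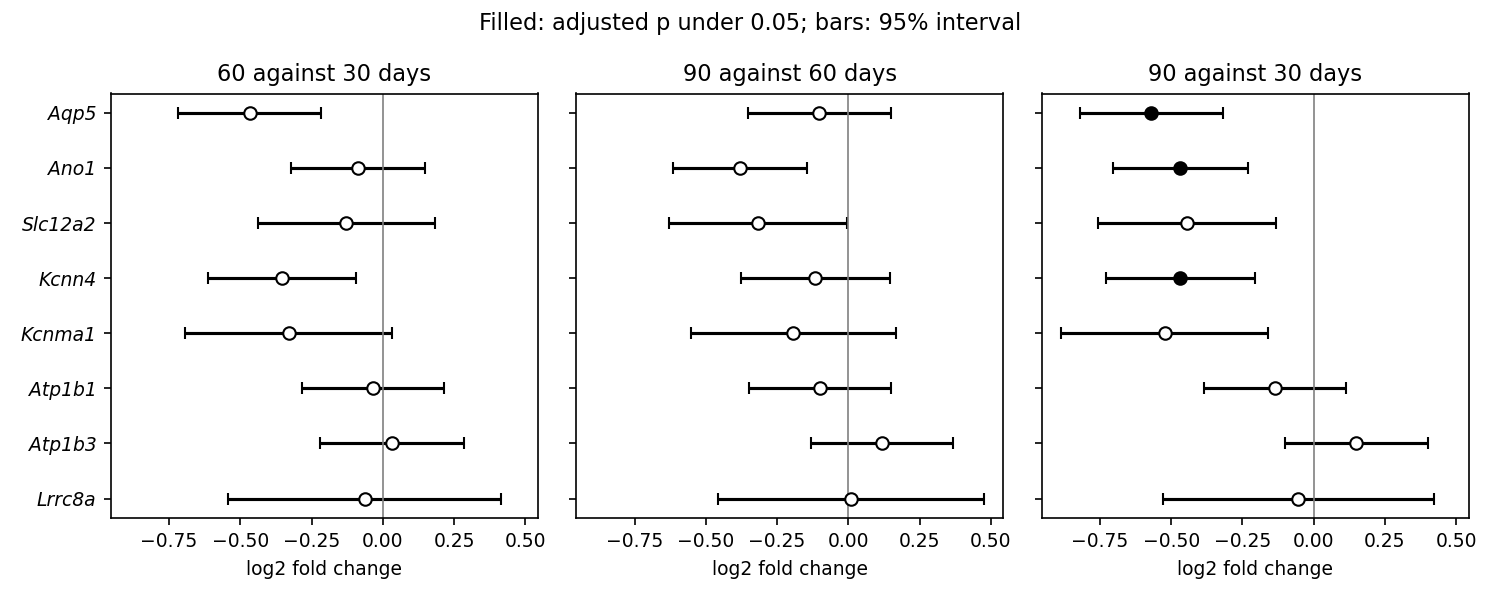
Log2 fold changes of the 8 genes in the 3 pairwise comparisons of time points, with 95% intervals from the edgeR fit over all 9 libraries; filled points have an adjusted p under 0.05. Aqp5, Ano1 and Kcnn4 are filled at 90 against 30 days, and the single steps have no filled point.

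The region around a RefSeq start site is shown for each of the 3 genes called lower in the same comparison of time points. Whether these genes share regulation was not tested. RefSeq (GRCm38.p6) windows of 300 bases, 250 before to 50 after a start site, were used for 7 of the 8 genes, all but Slc12a2. Both strands were searched for the GC box GGGCGG, the TATA box TATAAA, the CCAAT box, the cyclic AMP response element TGACGTCA and the E-box CATATG, which Bhlha15 binds. Matches are in capitals, and none overlaps another motif.
Aqp5 (chr15:99590778-99591077, plus strand): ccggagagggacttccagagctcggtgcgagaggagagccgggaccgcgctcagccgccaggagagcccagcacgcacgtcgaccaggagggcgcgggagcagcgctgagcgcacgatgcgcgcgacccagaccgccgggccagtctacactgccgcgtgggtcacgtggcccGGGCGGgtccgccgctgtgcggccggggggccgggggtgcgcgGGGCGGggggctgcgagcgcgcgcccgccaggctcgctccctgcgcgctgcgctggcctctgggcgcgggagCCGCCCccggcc
Ano1 (chr7:144738524-144738823, minus strand): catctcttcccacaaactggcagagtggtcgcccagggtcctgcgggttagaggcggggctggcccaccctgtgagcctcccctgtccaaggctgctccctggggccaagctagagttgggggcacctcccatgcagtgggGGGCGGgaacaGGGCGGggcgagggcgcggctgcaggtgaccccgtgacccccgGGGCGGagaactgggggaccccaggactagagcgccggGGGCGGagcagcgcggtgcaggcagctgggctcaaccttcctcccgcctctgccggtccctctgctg
Kcnn4 (chr7:24370013-24370312, plus strand): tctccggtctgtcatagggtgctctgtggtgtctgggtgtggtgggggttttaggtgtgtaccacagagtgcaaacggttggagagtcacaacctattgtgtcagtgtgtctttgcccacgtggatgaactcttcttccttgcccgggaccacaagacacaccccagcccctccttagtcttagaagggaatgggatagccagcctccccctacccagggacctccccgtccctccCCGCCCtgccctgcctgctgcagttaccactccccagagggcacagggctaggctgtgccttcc
The Aqp5 window held 3 GC boxes and the Ano1 window 4, at 79.7% and 71.7% GC with 46 and 18 CpG dinucleotides. The Kcnn4 window held 1 GC box, 59.7% GC and 6 CpG, where the medians over all promoters were 52.7% and 7. GGGCGG was present in 35.7% of all 32851 windows, TATAAA in 13.6%, CCAAT in 37.4%, CATATG in 3.9% and TGACGTCA in 1.8%, and the other 4 motifs had no match in these 3 windows. GGGCGG also matched in windows of Atp1b1, Atp1b3, Kcnma1 and Lrrc8a, which were not called. GC in those windows was 71.0%, 76.0%, 78.0% and 70.0%. A further Atp1b3 window had no match. The Atp1b1 window also held CCAAT, and the Lrrc8a window TGACGTCA. The GC box was thus not particular to the 3 called genes. The Ano1 window lies wholly inside the gene span given above, and the Aqp5 start site lies inside its span. Neither start site is therefore the outer annotated end of the gene. A match is a description of letters and not evidence of a bound factor.

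Ratios between genes within a library do not depend on how libraries are scaled, so 5 ratios of read counts were followed over time. The ratio of Ano1 to Aqp5 was 0.312, 0.407 and 0.334 at the successive time points (exact permutation test over 280 partitions of the 9 libraries, p = 0.0714, adjusted over the 5 ratios p = 0.179). That of Slc12a2 to Aqp5 was 2.57, 3.27 and 2.82 (exact permutation p = 0.0571, adjusted p = 0.179). The 60-day libraries spread most, with an SD of 0.30 and 0.29 on the log2 scale. The other 3 ratios gave adjusted p-values of 0.370 for Atp1b3 to Atp1b1, 0.814 for Kcnma1 to Kcnn4 and 0.370 for Lrrc8a to Ano1 (exact permutation tests). The smallest p this design allows is 0.00357.

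Partner genes of the pathway were counted from 6 lists of 53 genes, of which 46 could be tested. These lists were also chosen with earlier results of these data known. Between 30 and 90 days 3 of the 46 were called, beside 3.57% of all genes. All 3 were lower, and the median log2 fold change was 0.00, with 23 estimates higher and 23 lower. Wnk2 and Stk39 belong to the kinase cascade that activates Slc12a2, Stk39 (SPAK) being a kinase that phosphorylates the cotransporter. They were the 2 called of 7 listed cotransporter kinases, of which 5 estimates were lower and 2 higher at 90 days. Lrrc26 is an auxiliary subunit that lets the Kcnma1 channel open at resting voltages.

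Stk39 measured 252, 216 and 187 CPM at 30 days, 185, 186 and 189 CPM at 60 days, and 150, 136 and 157 CPM at 90 days. All 90-day values were below all others. Its 90 against 30 day log2 fold change was -0.56 ± 0.11 (adjusted p = 0.00884), a call lost without 30-day sample 1 (adjusted p = 0.0626) and without 90-day sample 2 (adjusted p = 0.0627). Wnk2 measured 229, 178 and 192 CPM at 30 days, 137, 138 and 146 CPM at 60 days, and 144, 128 and 119 CPM at 90 days. The 30-day values stood above the rest. Wnk2 was lower at 60 days (-0.51 ± 0.11, adjusted p = 0.0267) and at 90 days (-0.61 ± 0.11, adjusted p = 0.00430) than at 30 days, and the 90-day call held with each library left out in turn, while the 60-day call was lost without 30-day sample 1 or 3 or 60-day sample 1 or 2 (adjusted p from 0.0586 to 0.163).

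Lrrc26 measured 323, 233 and 233 CPM at 30 days, 209, 188 and 181 CPM at 60 days, and 189, 144 and 174 CPM at 90 days. As in Kcnma1, 30-day sample 1 was highest, but all 30-day values exceeded all later ones. By 90 days its log2 fold change against 30 days was -0.64 ± 0.14 (adjusted p = 0.0123), a call lost without 30-day sample 1 (adjusted p = 0.0844), 90-day sample 2 (adjusted p = 0.0851) or 90-day sample 3 (adjusted p = 0.0508). Of the beta subunits of that channel, Kcnmb1 stood at 1.49 CPM on average over the 9 libraries and Kcnmb2 had 0 counts in every library, which allows up to 0.101 to 0.212 CPM depending on the library (3 counts, counting error only).

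Clcn3, an ion exchanger of intracellular vesicles and the gene of highest CPM in the chloride exit list (per kb of exon Clcn2 exceeded it at 60 and 90 days), gave a log2 fold change of -0.34 ± 0.11 (adjusted p = 0.0952). Among water channels only 3 of 6 could be tested, and Aqp1, the channel of endothelium, gave 0.26 ± 0.21 (adjusted p = 0.602).

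**Figure D4:**
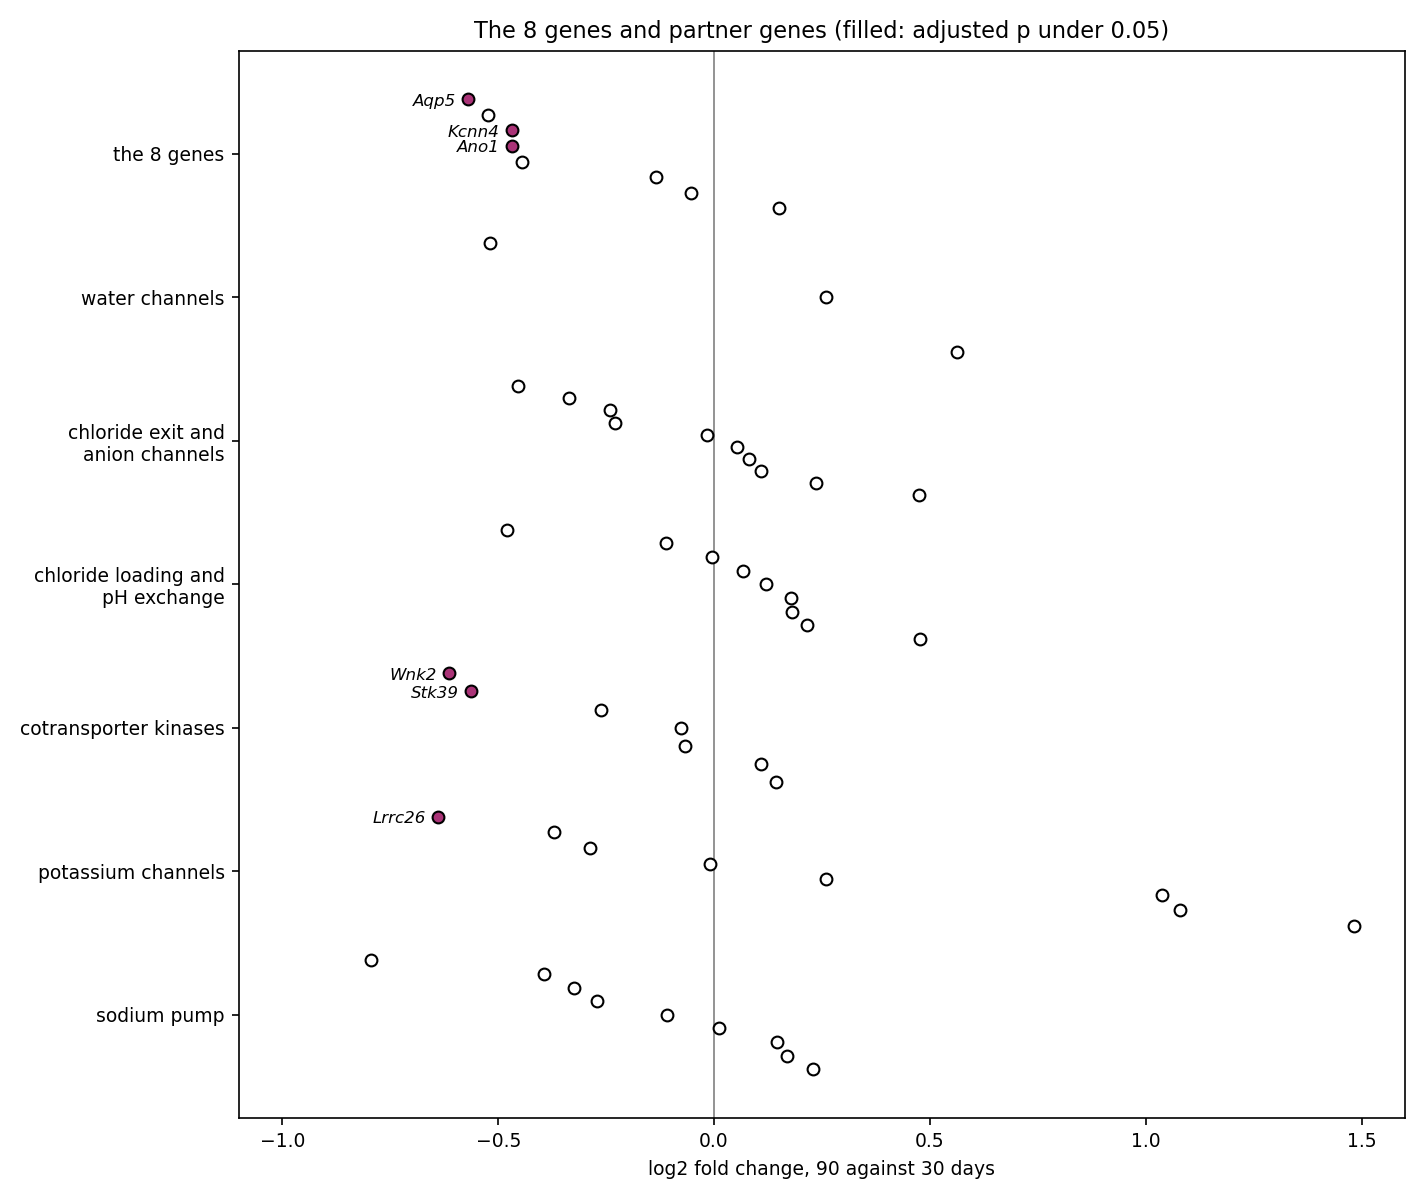
Log2 fold change at 90 against 30 days for the 8 genes and for the testable genes of 6 partner lists, 1 point per gene; filled points have an adjusted p under 0.05 and are named. The filled partners Wnk2, Stk39 and Lrrc26 lie at -0.61, -0.56 and -0.64, and the partner lists otherwise spread to both sides of 0.

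The genes whose pattern over the 9 libraries was most like that of Aqp5, among 7419 genes of at least 10 CPM, were Pomgnt1, Limk2 and Tspan13, with a Pearson r of log2 CPM of 0.98, 0.98 and 0.97. Pomgnt1, a glycosyltransferase gene, averaged 128, 92.1 and 87.6 CPM at the successive time points. For Ano1 they were Lrrc8b, Ttc38 and Xpo5 (r = 0.98, 0.96 and 0.96). With library totals alone, Bcat2 took the place of Limk2 and Adcy9 that of Xpo5 among the closest 3. Lrrc8b, another subunit of the volume-regulated anion channel, averaged 19.5, 17.9 and 14.3 CPM, and its log2 fold change from 30 to 90 days was -0.45 ± 0.14 (adjusted p = 0.0906). Among the 8 genes the closest pair was Aqp5 and Kcnn4 (r = 0.94 over 9 libraries, and 0.78 for the deviations from the group means), while Aqp5 and Ano1 gave 0.63 and 0.11. For the deviations other pairs were about as close: Slc12a2 and Kcnma1 (0.78), Kcnn4 and Kcnma1 (0.78), Slc12a2 and Kcnn4 (0.77), and Aqp5 and Lrrc8a (0.75). These correlations share library, scaling and depth, were mostly picked as the highest of many, and are given as a description.

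The size of these differences depended on how libraries were scaled. With library totals alone, without TMM, 0 of the 8 genes were called at 90 against 30 days. Aqp5, Ano1 and Kcnn4 then gave -0.34, -0.25 and -0.23 (adjusted p = 0.206, 0.368 and 0.373), and Wnk2, Stk39 and Lrrc26 gave -0.37, -0.33 and -0.40 (adjusted p = 0.187, 0.215 and 0.138). All genes then had a median of 0.24, against 0.01 with TMM. Scaling by library totals without the 10 most abundant genes called 4 of the 8 genes. As an unscaled share of all reads, the 8 genes together took 3144 to 3215 CPM at 30 days, 2828 to 3100 at 60 days and 2617 to 3146 at 90 days. Thinning all libraries to the smallest total also called 3 of the 8 genes.

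**Figure D5:**
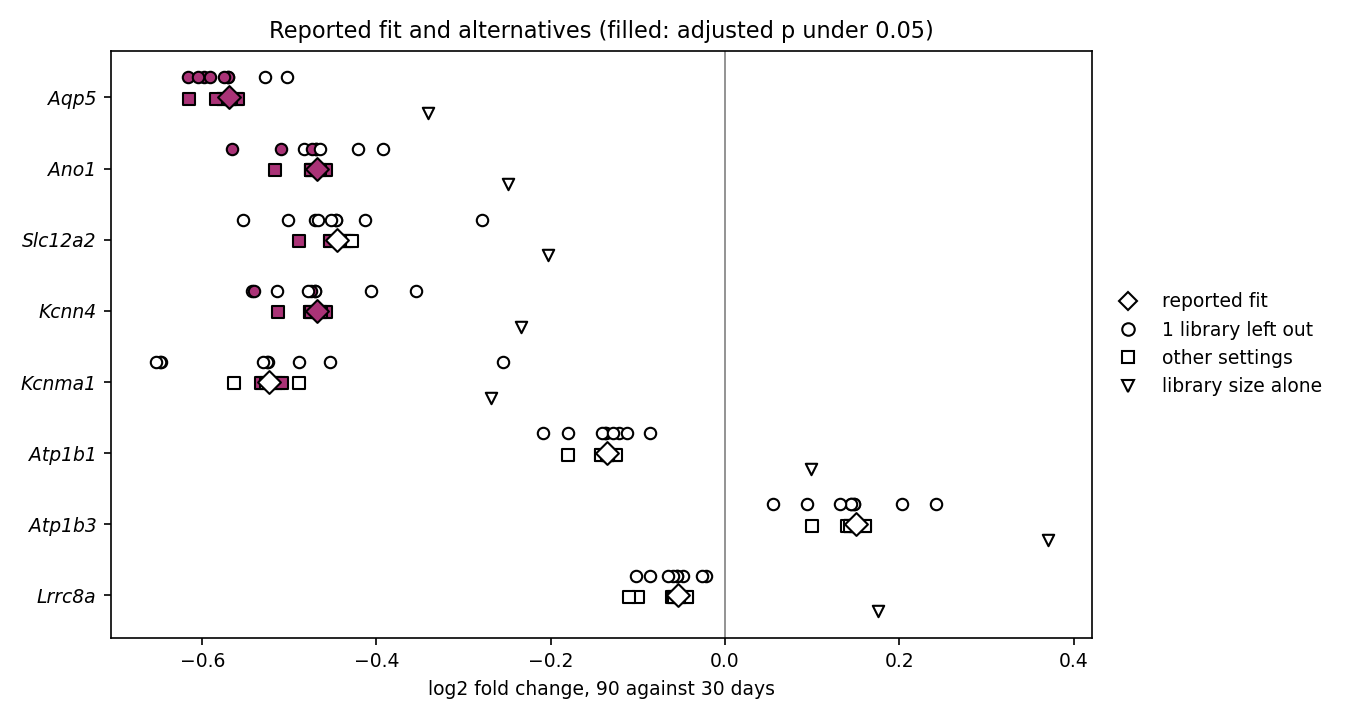
Log2 fold change of each of the 8 genes at 90 against 30 days in the reported edgeR fit (diamonds), with each library left out (circles), with library totals alone (triangles) and under other settings (squares); filled symbols have an adjusted p under 0.05. Estimates for Aqp5, Ano1, Slc12a2, Kcnn4 and Kcnma1 stay below 0 throughout, and library totals alone move every gene to the right.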

How the data were processed

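Bulk RNA-seq libraries of irradiated mouse submandibular glands were analysed from the read counts per gene that the authors deposited; fastp, STAR, featureCounts and the mm10 genome are named, without versions, per the submitters' processing notes. The counting options for strand and shared exons are not given in the sources used here. The table holds 12 columns, of which 3 match no sample here and were not used. The 8 genes and all lists were chosen with earlier results of these data known.

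Genes were filtered with filterByExpr (minimum count 10), scaled by TMM and tested over all 9 libraries with edgeR 4.0.16 (R 4.3.3), with Benjamini-Hochberg adjustment over 15224 genes and a threshold of 0.05. Library totals of 16541396 to 26065856 counts put 3 counts at 0.101 to 0.212 CPM. Exon lengths and positions came from GENCODE release M21 (GRCm38). Ratios used counts plus 0.5 and an exact permutation test. Alternatives were other scalings and filters, DESeq2 1.42.0, limma-voom (limma 3.58.1), the 6 libraries of a contrast, a replicate block, leaving out each library and, chosen after seeing the data, thinning to equal totals. On simulated data of 14900 genes for 90 against 30 days, the test found 94.3% of genes given a log2 change of 2 and 71.3% of those given 1, while 9.5% of its calls had been given none.

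Besides the 8 genes, up to 3 called genes of each partner list were named or, where none was called, the gene with the highest mean CPM (in 2 lists not reported here), and the 3 genes most like Aqp5 and Ano1 in pattern. Marker genes, Kcnmb1 and Kcnmb2 were named after their values were seen.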

Additional observations from a re-analysis of the deposited data

How the results depend on the processing

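Calls rested on scaling and on single libraries, and depth limits Lrrc8a, with 60 to 122 reads a library. At 90 against 30 days, where 3 of the 8 genes and 544 of all genes were called, library totals alone called 0 of the 8, DESeq2 5 (867 of all genes) and no filter 5 (1045). At 60 against 30 days (0 of 8 and 238), 1 of the 8 was called by DESeq2, by limma-voom, without the 10 most abundant genes in the totals and with no filter, each time Aqp5. All-gene counts there were 90 with library totals, 376 with DESeq2 and 459 with no filter. At 90 against 60 days (0 and 39) no filter called 1 of the 8 and 354 genes, and DESeq2 150 genes. For 60 days against the mean of 30 and 90 days (39 genes) the counts were 20 with library totals, 148 with DESeq2 and 230 with no filter. For any difference (2 of 8 and 501 genes) library totals called 0 and 277, no filter 5 and 1194, DESeq2 847 genes, and thinning 1 of the 8. The cause was not tested.

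The labels do not state that same-numbered libraries were matched, and the reported fit did not pair them. The r of their deviations from the group means ran from -0.06 to 0.19, against -0.21 to 0.19 for other numbers. By this measure 4 of 9 libraries were closest to their own number. Such correlations cannot show whether libraries were matched or handled together. The replicate block called 1 of the 8 genes at 60 against 30 days, 92 genes at 90 against 60 days and 73 for 60 days against the mean. It called 4 of the 8 and 717 genes at 90 against 30 days, with Kcnma1 gained, and 3 of the 8 and 609 genes for any difference, with Kcnn4 gained (adjusted p = 0.0393).

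Leaving out each library gave 0 to 1 of the 8 genes and 73 to 244 genes at 60 against 30 days, 16 to 103 genes at 90 against 60 days, and 0 to 3 of the 8 and 184 to 703 genes at 90 against 30 days. It gave 13 to 81 genes for 60 days against the mean, and 0 to 3 of the 8 and 220 to 683 genes for any difference.

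Of 600 estimates of the 8 genes under alternatives, 27 changed direction and 0 of them were called. With library totals alone, Atp1b1 gave 0.022 at 60 against 30 days, 0.076 at 90 against 60 days, 0.098 at 90 against 30 days and -0.027 for 60 days against the mean. Aqp5 and Kcnn4 then gave 0.069 and 0.063 at 90 against 60 days, and Lrrc8a 0.18 at 90 against 30 days. Without the 10 most abundant genes in the totals, Atp1b3 gave -0.048 at 60 against 30 days and Atp1b1 -0.024 for 60 days against the mean. Lrrc8a at 90 against 60 days gave -0.00093 in the 6 libraries of the contrast and -0.034 after thinning. With a library left out, the 60 against 30 day ranges were -0.23 to 0.042 for Slc12a2, -0.099 to 0.017 for Atp1b1, -0.020 to 0.10 for Atp1b3 and -0.29 to 0.060 for Lrrc8a. At 90 against 60 days they were -0.18 to 0.012 for Aqp5 and -0.12 to 0.23 for Lrrc8a. For 60 days against the mean they were -0.13 to 0.068 for Kcnma1, -0.086 to 0.028 for Atp1b3 and -0.26 to 0.088 for Lrrc8a. The change in the Kcnma1 to Kcnn4 ratio ran from -0.11 to 0.093.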

Other observations

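Of the 3 listed subunits of the epithelial sodium channel, with which duct cells take sodium back from saliva, 2 were higher at 90 than at 30 days. Scnn1b averaged 65.6 ± 11.7 CPM in the 30-day and 95.4 ± 2.11 CPM in the 90-day libraries (SD, n = 3 each). Its log2 fold change was 0.54 ± 0.12 (edgeR, adjusted p = 0.0123), a call lost without 30-day sample 1 (adjusted p = 0.0790) and without 90-day sample 2 (adjusted p = 0.0554). Scnn1g averaged 19.6 ± 1.79 CPM in the 30-day and 27.3 ± 2.66 CPM in the 90-day libraries (SD, n = 3 each). Its log2 fold change was 0.47 ± 0.12 (edgeR, adjusted p = 0.0383), and the call was lost in 5 of the 9 fits that left out a library, with limma-voom (adjusted p = 0.0579), without the 10 most abundant genes in the totals (adjusted p = 0.0713) and after thinning (adjusted p = 0.05005). Scnn1a averaged 79.9 ± 2.14 CPM in the 30-day and 84.0 ± 3.25 CPM in the 90-day libraries, a log2 fold change of 0.07 ± 0.10 that did not pass the test (adjusted p = 0.791). Scnn1b and Scnn1g were the 2 of 10 striated and excretory duct markers called at 90 against 30 days, and the summed list ranged from 753 to 772 CPM at 30 days and from 785 to 829 CPM at 90 days.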
